A study of Mus musculus with 8 samples.

Results

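The MHC class I genes of the mouse H2 region were followed in the hearts of HVCN1 null and WT mice. The 10 genes H2-K1, H2-D1, H2-Q1, H2-Q2, H2-Q4, H2-Q6, H2-Q7, H2-Q10, H2-T22 and H2-T23 were taken by name, and their Ensembl identifiers were found among the 39056 genes of the count table. All 10 passed the filter on low counts and stood among the 14796 genes tested. H2-Q1 and H2-Q2 passed it through their counts in the HVCN1 null hearts alone. H2-Q10 also needed the HVCN1 null hearts to pass, as the lowest WT heart held 6 counts of it. RNA-seq was performed on heart samples of 3-month-old male mice, 4 HVCN1 null mice (Hv1 gene knockout) and 4 WT mice (C57BL/6 background), with 1 library per heart. HVCN1 is a voltage-gated proton channel. The 4 HVCN1 null hearts are called null hearts 1 to 4 and the 4 WT hearts WT hearts 5 to 8. The H2 haplotype of the mice, which is the set of alleles carried along this region, is not given in the sources used here, so H2 haplotype and Hvcn1 genotype cannot be told apart.

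Class I molecules consist of a polymorphic heavy chain and beta-2 microglobulin, and they hold a short peptide from inside the cell at the surface, where CD8 T cells and natural killer cells inspect it. The classical genes H2-K1 and H2-D1 are expressed in nearly all nucleated cells, while the genes of the Q and T regions are non-classical and are mostly weaker, less polymorphic or restricted in tissue. The heavy chains differ among inbred strains more than almost any other protein, and the reference genome, from C57BL/6J, carries the b haplotype. Reads of a strain with another haplotype are therefore aligned to class I sequences that are not its own.

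The start of the coding sequence shows how alike and how different these genes are. The first 60 coding bases, where the signal peptide is coded, are shown for 6 genes. These are the classical pair, the 3 genes that were higher in the null hearts, and H2-Q7. Capitals stand at the bases that differ from H2-K1 or are not in it. They were read from GENCODE transcripts of the C57BL/6J reference, not from these mice.
H2-K1: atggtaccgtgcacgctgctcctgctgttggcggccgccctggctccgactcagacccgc
H2-D1: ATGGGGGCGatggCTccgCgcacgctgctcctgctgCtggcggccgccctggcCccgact
H2-Q1: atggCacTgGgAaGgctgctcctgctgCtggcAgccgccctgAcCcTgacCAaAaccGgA
H2-Q2: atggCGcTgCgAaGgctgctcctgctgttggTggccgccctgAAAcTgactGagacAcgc
H2-Q10: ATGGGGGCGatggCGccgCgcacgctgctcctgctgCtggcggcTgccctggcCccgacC
H2-Q7: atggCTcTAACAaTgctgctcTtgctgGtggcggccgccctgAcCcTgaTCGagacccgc
H2-D1 had 14 such bases, H2-Q1 had 15, H2-Q2 had 13, H2-Q10 had 16 and H2-Q7 had 16. Across whole proteins translated from the reference, H2-D1 was 83.8% identical to H2-K1, while H2-Q2 was 74.8%, H2-T23 was 75.4% and H2-T22 was 52.9% identical to it. Likeness at the level of a read was measured as the share of 50-base windows of a transcript that also occurred in a transcript of another gene. That share was 8.79% for H2-K1, 14.3% for H2-D1, 22.9% for H2-Q1, 8.74% for H2-Q2 and 8.03% for H2-Q10. The share was higher for H2-Q4 (24.3%), H2-T23 (28.8%), H2-Q6 (31.97%), H2-Q7 (40.2%) and H2-T22 (44.7%). H2-T22 shared most with the pseudogene H2-T10 (37.9%), and H2-Q7 shared most with H2-Q5 (20.1%). H2-Q1 shared most with H2-Q2 (13.9%), while H2-Q2 shared 3.05% of its windows with H2-Q1. The windows came from 1 transcript of each member. That of H2-Q2 had 1262 bases, where all its annotated exons joined had 2181, so its share may be too low. Counts of these members may be split with their copies, because the handling of reads that fit several genes is not given in the sources used here. No gene in the table overlapped any of the 10 members in the annotation.

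Class I genes are switched on through a kappa B element and an interferon-stimulated response element (ISRE) before the gene, both known from H2-K1. The sequences before the start are shown for H2-K1, for H2-Q4, whose groups did not overlap, and for H2-Q2 and H2-Q10, which were higher in the null hearts. Capitals mark GGGNNTTCC (kappa B-like) and GAANNGAAA (ISRE-like) on either strand. The sequences are RefSeq promoters of build GRCm38.p6 on chromosome 17, written 5′ to 3′ along the gene, without bases inside the annotated gene.
H2-K1, chr17:34000348-34000597, minus strand: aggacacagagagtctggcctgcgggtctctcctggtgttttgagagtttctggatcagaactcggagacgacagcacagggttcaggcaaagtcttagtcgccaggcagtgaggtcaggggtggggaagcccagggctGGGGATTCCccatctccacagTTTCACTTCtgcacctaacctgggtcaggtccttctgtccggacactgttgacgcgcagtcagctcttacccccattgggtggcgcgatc
H2-Q4, chr17:35379367-35379616, plus strand: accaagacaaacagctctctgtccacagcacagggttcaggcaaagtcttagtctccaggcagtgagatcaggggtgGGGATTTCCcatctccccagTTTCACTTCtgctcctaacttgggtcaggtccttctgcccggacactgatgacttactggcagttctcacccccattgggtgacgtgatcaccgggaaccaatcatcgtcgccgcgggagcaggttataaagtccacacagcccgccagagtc
H2-Q2, chr17:35342057-35342241, plus strand: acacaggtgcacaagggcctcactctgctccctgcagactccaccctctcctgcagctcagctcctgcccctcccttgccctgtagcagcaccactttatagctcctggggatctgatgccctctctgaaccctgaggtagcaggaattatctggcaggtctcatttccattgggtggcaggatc
H2-Q10, chr17:35469839-35470088, plus strand: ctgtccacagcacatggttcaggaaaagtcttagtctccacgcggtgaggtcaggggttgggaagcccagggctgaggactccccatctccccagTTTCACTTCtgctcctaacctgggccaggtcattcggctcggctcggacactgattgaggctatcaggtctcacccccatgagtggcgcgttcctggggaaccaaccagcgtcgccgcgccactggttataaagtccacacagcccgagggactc
In windows of 250 bases before to 50 bases after the RefSeq start, 7.516% of 32851 mouse promoters held the ISRE-like letters and 5.820% held the kappa B-like letters. RefSeq promoters were found for 9 of the 10 genes, all but H2-Q1. H2-K1, H2-D1, H2-Q4, H2-Q6 and H2-Q7 held both, and H2-Q10 held the ISRE-like letters alone. H2-Q2, H2-T22 and H2-T23 held neither of these exact patterns. The ISRE-like letters follow the spacing found in H2-K1, and forms with a longer spacing were not searched for. H2-T22 held tttcactttc and H2-T23 held tttctctttc, which are close to these letters but were not counted. Whether these genes lack an ISRE was therefore not tested.

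Total counts ran from 25851255 to 38874640 per heart, so that 3 counts corresponded to between 0.076 and 0.114 CPM, counts of a gene scaled to the size of its library. Counts were scaled with edgeR and compared by its quasi-likelihood test, and a gene with a Benjamini-Hochberg adjusted p under 0.05 over all genes tested is called a differentially expressed gene (DEG). Hvcn1, on chromosome 5, checked the labels, with 0.04 to 0.18 CPM in the null hearts and 1.51 to 2.62 CPM in the WT hearts. Summed cardiomyocyte markers ran from 52224 to 68395 CPM. Summed atrial markers were high in null hearts 2 and 3 and WT hearts 5 and 7 (3362 to 8706 CPM) and low in the other 4 hearts (172 to 400.4 CPM). How much atrium each heart sample held was not measured. Whether the difference in atrial markers or any other difference between the hearts had a part in the results below was not tested, except where a fit is named. Each library came from a separate mouse.

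Of the 10 class I genes, 3 were DEGs, all higher in the null hearts: H2-Q1, H2-Q2 and H2-Q10. None was lower. Among all 14796 genes, 1.14% were DEGs and 0.743% were DEGs with higher values in the null hearts. The filter on low counts bears on the count of 3, since these genes would not have passed it without the null hearts. The count is a description. The median log2 fold change (null over WT) of the 10 genes was -0.07, beside -0.01 over all genes tested. Of the 7 genes that were not called, H2-Q4 had higher mean CPM in the null hearts and the other 6 had lower mean CPM. The groups did not overlap for 4 of the 10 genes, namely the 3 DEGs and H2-Q4, against 7.06% of all genes tested. For the 3 DEGs the same limit of the filter holds, and this count too is a description.

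**Figure D1:**
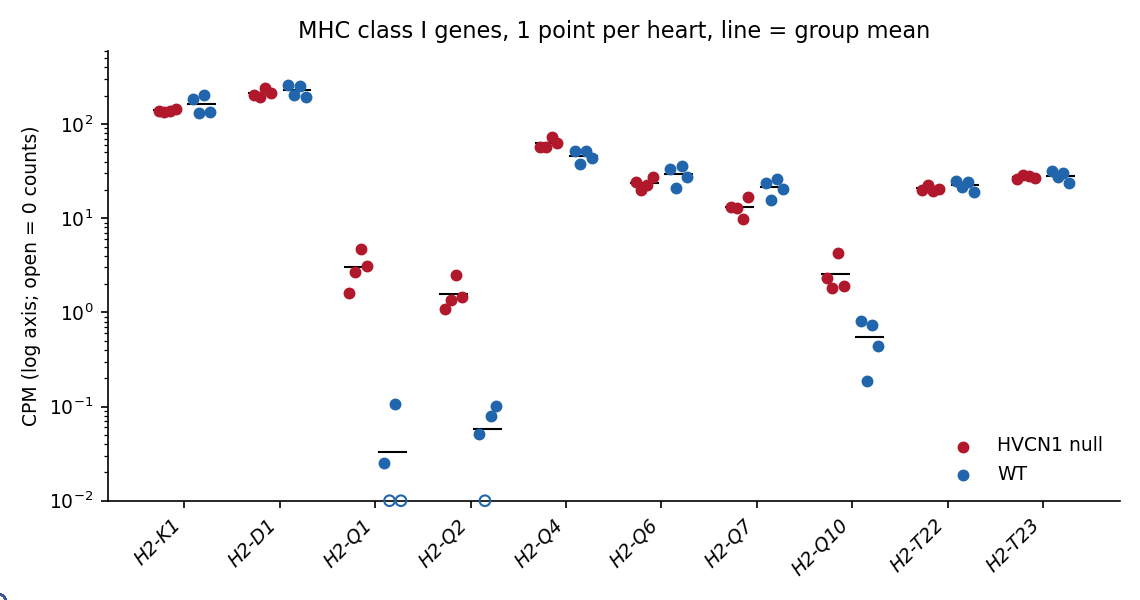
CPM (log axis) of the 10 MHC class I genes, 1 point per heart, in HVCN1 null (red) and WT (blue) hearts, with lines at the group means and open points for 0 counts. H2-Q1, H2-Q2 and H2-Q10 lay higher in all 4 null hearts than in any WT heart, while H2-K1 and H2-D1 lay between 131 and 260.0 CPM with overlapping groups.

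H2-K1 and H2-D1 code for the classical heavy chains that present peptides to CD8 T cells. H2-K1 lies on chromosome 17 between bases 33996017 and 34000347 (GRCm38). It had 139, 135, 138 and 145 CPM in the null hearts and 184, 131, 205 and 136 CPM in the WT hearts. The null hearts lay close together, within the range of the WT hearts, in which hearts 5 and 7 were high. The log2 fold change was -0.24 ± 0.14 (SE), and H2-K1 was not a DEG (edgeR adjusted p = 0.646). H2-D1 had 203, 196, 242 and 214 CPM in the null hearts and 260.0, 204, 254 and 192 CPM in the WT hearts. Its groups overlapped too, with a log2 fold change of -0.09 ± 0.13 (SE, edgeR adjusted p = 0.898). The WT hearts with the most H2-K1, hearts 5 and 7, were also the WT hearts with high atrial markers. In the 4 hearts with low atrial markers alone, the fold changes turned to 0.10 for H2-K1 and 0.09 for H2-D1 on the log2 scale, and in the 4 hearts with high atrial markers they were -0.52 and -0.24. With the atrial marker level in the fit they were -0.23 and -0.10.

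H2-Q1 showed the widest difference of the 10 genes. It is a non-classical gene of little-known function, and it lies on chromosome 17 between bases 35320405 and 35325099. The null hearts held 54, 100, 125 and 111 counts, or 1.62, 2.68, 4.75 and 3.14 CPM. The WT hearts held 1, 0, 4 and 0 counts, or 0.03, 0, 0.11 and 0 CPM. Every null heart was above every WT heart, and 2 of the WT hearts had no count at all. The log2 fold change was 6.28 ± 0.63 (SE, edgeR adjusted p = 7.77e-04). Taken over the summed counts of each group, 390 against 5, the ratio was 82.1 with a 95% interval of 34.9 to 254, which covers counting error only. H2-Q1 was called in all 19 other fits, among them those with each heart left out and the separate fits to hearts of high and of low atrial markers.

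H2-Q2, next to H2-Q1 at bases 35342242 to 35346762, was also nearly silent in the WT hearts. It had 36, 50, 65 and 51 counts in the null hearts, or 1.08, 1.34, 2.47 and 1.44 CPM. The WT hearts had 2, 0, 3 and 3 counts, or 0.05, 0, 0.08 and 0.10 CPM. All 4 null hearts stood above all 4 WT hearts. The log2 fold change was 4.69 ± 0.52 (SE, edgeR adjusted p = 0.00164), and the ratio of the summed counts was 26.6 (95% interval 13.2 to 62.4, counting error only). H2-Q2 remained a DEG with each heart left out in turn, with adjusted p from 0.00328 to 0.0129. It was not called in the 4 hearts with high atrial markers (log2 fold change 4.79) or in the 4 with low atrial markers (log2 fold change 4.61), where 2 hearts were compared with 2.

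H2-Q10 codes for a class I molecule without a membrane anchor, which the liver secretes into blood. It lies at bases 35470089 to 35474563. The null hearts held 78, 68, 112 and 68 counts, or 2.34, 1.82, 4.26 and 1.92 CPM, and the WT hearts held 32, 6, 28 and 13 counts, or 0.81, 0.19, 0.74 and 0.44 CPM. The groups did not overlap, and here the WT hearts had counts in every library. The log2 fold change was 2.21 ± 0.43 (SE, edgeR adjusted p = 0.0422). This call depended on the fit. It was lost when any heart other than null heart 2 was left out (adjusted p from 0.0504 to 0.112), with library sizes not scaled (0.0520) and with limma's voom (0.0509), and in the 4 hearts with high and the 4 with low atrial markers (0.478 and 0.0787), while the log2 fold change stayed between 1.87 and 2.79 in all fits. Among the liver markers, albumin (Alb), Fga and Fgb had no count in any heart. The summed liver markers ran from 4.68 to 23.5 CPM in the null hearts and from 3.28 to 16.5 CPM in the WT hearts, with overlap.

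H2-Q4, H2-Q6 and H2-Q7 are the Q genes with substantial expression in both groups, and H2-Q7 codes for Qa-2, a molecule held in the membrane by a lipid anchor. H2-Q4 had 57.2, 56.4, 73.4 and 62.3 CPM in the null hearts and 52.3, 37.2, 52.3 and 43.2 CPM in the WT hearts. The lowest null heart stood above the highest WT heart, but the difference of 0.43 ± 0.13 (log2, SE) did not pass the test (edgeR adjusted p = 0.211). H2-Q7 had 13.3, 12.9, 9.77 and 16.7 CPM in the null hearts and 23.7, 15.5, 25.9 and 20.5 CPM in the WT hearts. Null heart 4 and WT heart 6 overlapped, and the other WT hearts were higher than all null hearts. The log2 fold change of H2-Q7 was -0.70 ± 0.18 (SE, edgeR adjusted p = 0.132). It was a DEG by edgeR's exact test, by its likelihood ratio test and by DESeq2, with adjusted p of 0.0244, 0.0233 and 0.0216. H2-Q6, which shared 13.9% of its windows with H2-Q7, had 19.8 to 27.7 CPM in the null hearts and 21.05 to 35.9 CPM in the WT hearts (log2 fold change -0.32 ± 0.16, SE, edgeR adjusted p = 0.540). The ratio of H2-Q4 to H2-Q7 counts within a heart was 4.31, 4.36, 7.51 and 3.72 in the null hearts and 2.20, 2.40, 2.02 and 2.10 in the WT hearts. This ratio does not depend on library scaling, and its groups did not overlap. It sets the only uncalled member with a higher mean against the member with the lowest fold change. The ratio therefore adds no separate support to either difference.

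H2-T22 and H2-T23 had the smallest differences apart from H2-D1. H2-T23 codes for Qa-1, which presents peptides cut from the signal peptides of other class I chains to the CD94 and NKG2 receptors of natural killer cells, and H2-T22 codes for a ligand of certain gamma delta T cells. H2-T23 had 26.2, 28.7, 27.7 and 26.5 CPM in the null hearts and 31.6, 27.5, 29.9 and 23.9 CPM in the WT hearts. The null hearts lay within the WT range, with a log2 fold change of -0.05 ± 0.09 (SE, edgeR adjusted p = 0.931). H2-T22 ran from 19.7 to 22.5 CPM in the null hearts and from 18.9 to 25.0 CPM in the WT hearts, with a log2 fold change of -0.11 ± 0.10 (SE, edgeR adjusted p = 0.812).

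**Figure D2:**
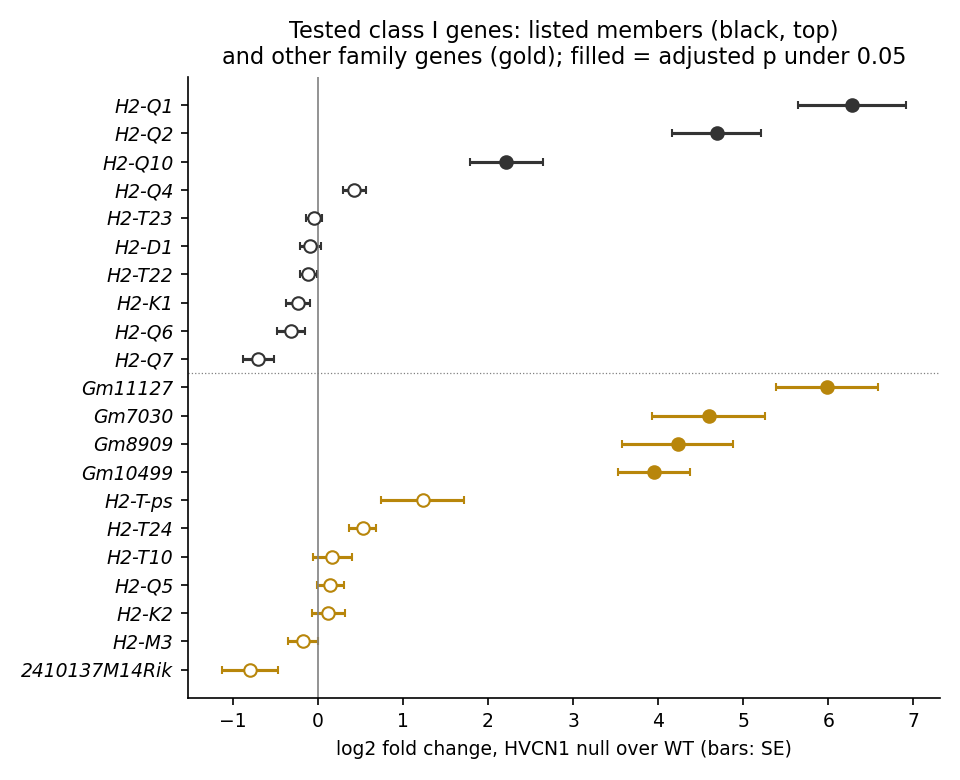
Log2 fold changes (HVCN1 null over WT, bars are SE) of the 10 listed class I genes (black, above the dotted line) and of the 11 other class I family genes that were tested (gold), filled where the edgeR adjusted p was under 0.05. The 7 filled genes all lie above 2 on the log2 scale, and the other genes lie between -0.80 and 1.23.

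Compared per kilobase of exon, with all annotated exons of a gene joined, the order of levels at the top was the same in both groups. This length can exceed that of a single transcript. For H2-Q7 it was 4265 bases, where the transcript used for the windows had 1497. The order between genes therefore depends on the length used. In the WT hearts the mean was 88.2 CPM per kb for H2-D1, 55.8 for H2-K1, 17.8 for H2-Q4, 14.1 for H2-Q6, 9.78 for H2-T23, 6.55 for H2-T22 and 5.02 for H2-Q7. The ranges of H2-Q4 and H2-Q6, H2-Q6 and H2-T23, and H2-T22 and H2-Q7 overlapped across the WT hearts. Within each WT heart, however, the gene named first in each pair was the higher. In the null hearts the means were 83.0 CPM per kb for H2-D1, 47.4 for H2-K1, 24.01 for H2-Q4, 11.3 for H2-Q6, 9.45 for H2-T23, 6.06 for H2-T22 and 3.09 for H2-Q7. Of these neighbours, the ranges of H2-Q6 and H2-T23 overlapped in the null hearts, and H2-T23 was the higher in null heart 2 alone. On this measure the order at the lower end was reversed between the groups. H2-Q10 was the highest of the lowest 3 in the WT hearts, at 0.125 CPM per kb, followed by H2-Q2 at 0.0265 and H2-Q1 at 0.0115. In the null hearts H2-Q1 was first at 1.06 CPM per kb, followed by H2-Q2 at 0.726 and H2-Q10 at 0.594. Neighbours among these 3 genes overlapped in both groups.

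The 10 genes together gave a similar total in both groups. Their summed CPM was 488, 477, 545 and 519 in the null hearts and 610.5, 458, 628 and 462 in the WT hearts. WT hearts 5 and 7 were the highest and WT hearts 6 and 8 the lowest, with all null hearts between them. The sum differed by -0.09 ± 0.13 on the log2 scale (null over WT, SE), and by -0.06 ± 0.13 when all 32 class I genes found by name or by protein identity were summed. The sum of the 10 genes was lower in the null hearts when only hearts with high atrial markers were compared (-0.28) and higher when only hearts with low atrial markers were compared (0.15). No p is given for these sums or for the shares that follow, because the 10 genes were chosen with results known.

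The make-up of that total differed. H2-K1 and H2-D1 held 70.1%, 69.4%, 69.8% and 69.2% of the counts of the 10 genes in the null hearts and 72.7%, 73.1%, 73.1% and 70.9% in the WT hearts. The 6 Q genes held 20.4%, 19.9%, 21.5% and 21.8% in the null hearts and 18.003%, 16.1%, 18.3% and 19.8% in the WT hearts. In both shares the groups did not overlap, although null heart 2 and WT heart 8 were close for the Q genes. The mean share on Q genes was 20.9% ± 0.91 (SD, n = 4) in the null hearts and 18.1% ± 1.499 (SD, n = 4) in the WT hearts, a difference of 2.83 percentage points. Taken as a share of all 32 class I genes, the difference was 2.32 points, and the groups overlapped (18.7% to 20.7% in null, 15.4% to 18.9% in WT). H2-Q1, H2-Q2 and H2-Q10 alone made up 1.03% to 2.11% of the counts in the null hearts and 0.0405% to 0.147% in the WT hearts. These 3 genes accounted for 1.29 points of the difference in the share of Q genes, and the remainder was the net of H2-Q4, H2-Q6 and H2-Q7.

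**Figure D3:**
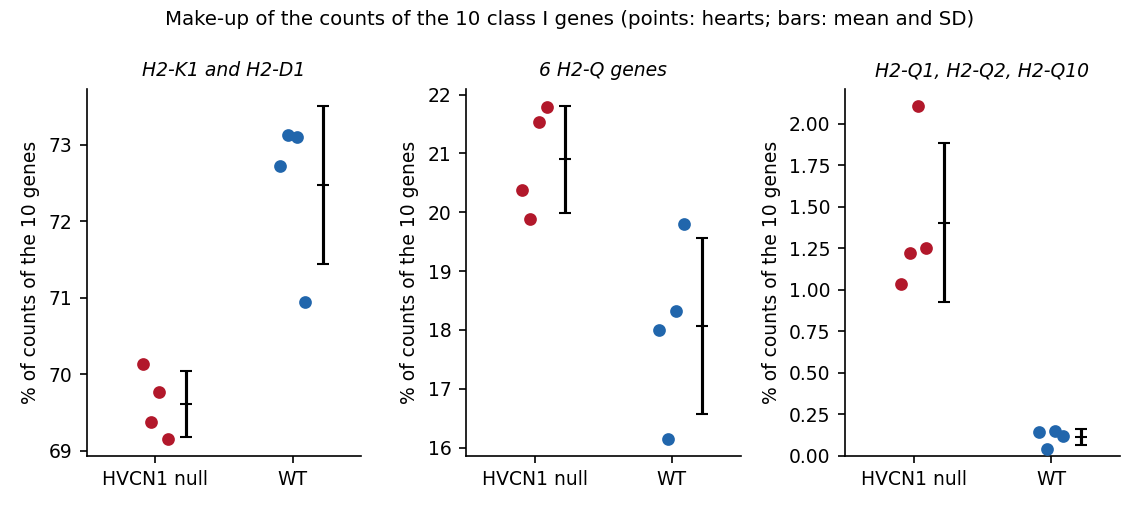
Percent of the counts of the 10 class I genes that lay on H2-K1 and H2-D1 (left), on the 6 Q genes (middle) and on H2-Q1, H2-Q2 and H2-Q10 (right), 1 point per heart, with mean and SD; the axes of the left and middle panels do not start at 0. In each panel all 4 null hearts lie on one side of all 4 WT hearts.

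Beyond the 10 genes, 29 class I genes were found by name or by likeness to H2-K1, and 11 of them were tested. Of these 11, 4 were DEGs, all higher in the null hearts, where 0.743% of all genes tested were DEGs with higher values in the null hearts. The filter on low counts bears on this count, since Gm11127, Gm7030 and Gm8909 passed it only through the null hearts, and the count is a description. They were Gm11127, Gm7030 and Gm8909, annotated as protein coding, and the transcribed pseudogene Gm10499, and all lie in the T region. Gm11127 had 85, 91, 169 and 83 counts in the null hearts and 1, 0, 3 and 3 in the WT hearts (log2 fold change 5.98 ± 0.60, SE, edgeR adjusted p = 7.77e-04). Gm10499 had 4.17, 5.03, 12.96 and 4.07 CPM in the null hearts and 0.430, 0.402, 0.370 and 0.473 CPM in the WT hearts (log2 fold change 3.95 ± 0.42, SE, edgeR adjusted p = 0.00131). The log2 fold change was 4.59 for Gm7030 and 4.23 for Gm8909, with edgeR adjusted p of 0.00963 and 0.0125. Gm7030 overlaps H2-T10 and H2-T-ps on the same strand, and neither of these was a DEG. Gm11127, Gm7030 and Gm8909 had between 0 and 3 counts in each WT heart, a range close to that of H2-Q1 and H2-Q2, while Gm10499 had 13 to 17 counts in each. Too low to be tested, H2-T3 had 5, 5, 6 and 5 counts in the null hearts and 0, 1, 0 and 0 in the WT hearts, and H2-Bl had 8, 8, 16 and 8 counts against 3, 2, 0 and 0. Other untested genes went the other way, such as H2-M2 (2 against 7 summed counts) and H2-M5 (11 against 16). Of the 11 tested genes, 9 had higher and 2 lower values in the null hearts. For 2410137M14Rik every null heart was below every WT heart, but it was not a DEG (log2 fold change -0.80, edgeR adjusted p = 0.402). The 2 other named class I genes of highest mean CPM, H2-T24 and H2-Q5, were not DEGs (log2 fold change 0.53 and 0.15, edgeR adjusted p = 0.202 and 0.861). Null heart 3, the library with the fewest counts, had the highest CPM of all 7 class I DEGs.

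The class I DEGs all lie in a single stretch of chromosome 17. It was examined from 1 Mb before H2-K1 to 1 Mb beyond H2-T22 (bases 32996017 to 37042747). Of its 144 tested genes, 13 were DEGs (9.03%), 12 higher and 1 lower in the null hearts, where 1.14% of all genes tested were DEGs. Without the class I genes, 6 of 124 were DEGs (4.84%), and on the rest of chromosome 17, 6 of 576 (1.04%). The filter on low counts bears on the region counts as well. H2-Ea-ps, C4a, H2-Q1, H2-Q2, H2-Q10, Gm11127, Gm7030 and Gm8909 would not have passed it without their counts in the null hearts. These shares are a description. H2-Ea-ps, the b-haplotype form of the class II gene Ea, which is known not to be transcribed in C57BL/6 mice because its promoter is deleted, had 254, 376, 398 and 383 counts in the null hearts and 0 in every WT heart. Against a limit of 3 counts over the 4 WT hearts, H2-Ea-ps was at least 495-fold higher in the null hearts (edgeR adjusted p = 7.54e-05). The complement gene C4a had 0.593 to 1.71 CPM in the null hearts and 0.124 to 0.397 CPM in the WT hearts (log2 fold change 2.14, edgeR adjusted p = 0.0441). The heat shock genes Hspa1b and Hspa1a were higher by 3.02 and 2.67 on the log2 scale (edgeR adjusted p = 0.0104 and 0.0202), with null heart 1 above 38 CPM for both and the other null hearts between 8.14 and 15.5 CPM. Hspa1a and Hspa1b are near-identical copies, as are C4a and its neighbour C4b, so reads can be split within each pair. Ppp1r10, a regulator of protein phosphatase 1, was higher by 0.86 (edgeR adjusted p = 0.00776). Angptl4, an inhibitor of lipoprotein lipase, was the 1 gene lower in the null hearts, with 1.82 to 8.65 CPM against 16.7 to 44.5 CPM (edgeR adjusted p = 0.0202). H2-Ea-ps, C4a and the Hspa1 genes lie between H2-K1 and H2-D1, which were not called, and H2-Q4, H2-Q6 and H2-Q7, not called either, lie between H2-Q2 and H2-Q10. Angptl4 lies before H2-K1. The number of DEGs in the region was 8 without WT heart 5, 7 without WT heart 6 and 21 by DESeq2.

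**Figure D4:**
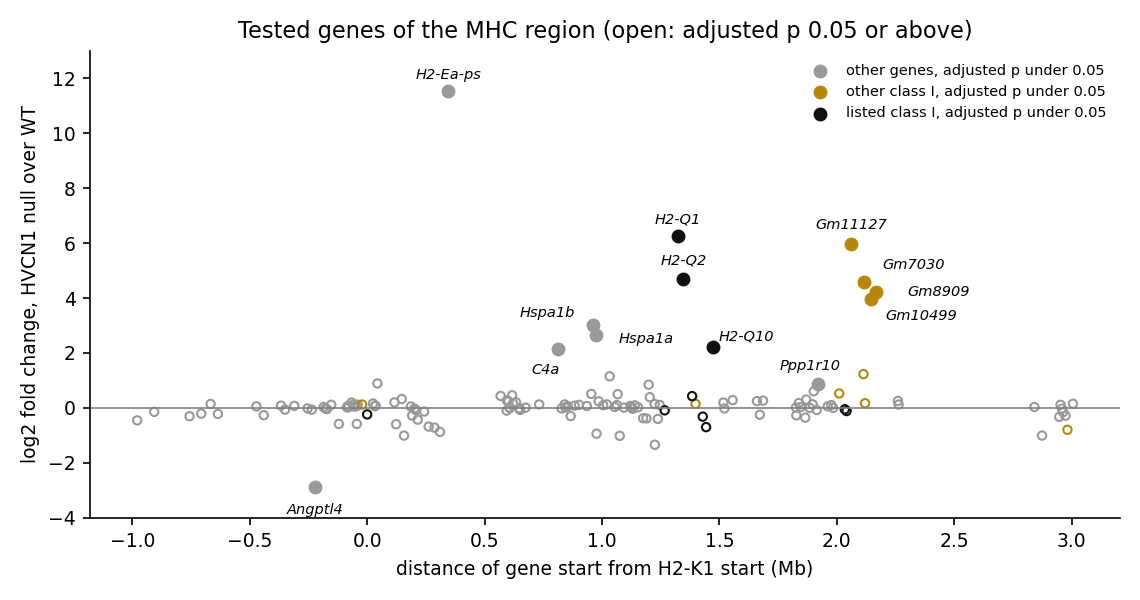
Log2 fold change (HVCN1 null over WT) of the 144 tested genes of the MHC region against the distance of the gene start from the start of H2-K1 in Mb, with DEGs filled and named. The filled class I genes lie in 2 groups between 1.3 and 2.2 Mb, with members that were not called beside them; the fitted value of H2-Ea-ps, with 0 counts in all WT hearts, depends on the prior count.

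The genes that build, load and switch on class I molecules were examined as 28 genes in 3 lists. None was a DEG by edgeR's quasi-likelihood test, 3 had an unadjusted p under 0.05, and none was called by edgeR's exact or likelihood ratio test, DESeq2 or limma's voom. With 1.14% of all genes tested called and 1625 of 14796 at an unadjusted p under 0.05, counts of this size over 28 genes are near the background and say little about these lists. Among the 9 genes of folding and peptide loading, 2 had higher and 7 lower values in the null hearts (median log2 fold change -0.08). B2m, the light chain of all class I molecules, had 235, 218, 264 and 249.7 CPM in the null hearts and 280.3, 228, 265 and 217 CPM in the WT hearts, with a log2 fold change of -0.04 (edgeR adjusted p = 0.965). The chaperone Calr had 225 to 280 CPM in the null hearts and 264 to 316 CPM in the WT hearts (edgeR adjusted p = 0.600). Tap1, a subunit of the peptide transporter, had the lowest fold change of this list (-0.28, edgeR adjusted p = 0.346). In the immunoproteasome and its activator, 4 of 5 genes had higher values in the null hearts (median 0.16), and the activator subunits Psme1 and Psme2 had log2 fold changes of 0.39 and 0.16 (edgeR adjusted p = 0.307 and 0.770). The 14 transcription factors of class I genes were divided, 7 higher and 7 lower, with a median of 0.0033. Rela and Nfkb1, both subunits of NF-kappa B, were the most abundant by CPM (log2 fold change 0.19 and -0.05, edgeR adjusted p = 0.557 and 0.920). Nfyc, a subunit of the CCAAT-binding factor NF-Y, had groups that did not overlap, with 35.1 to 40.8 CPM in the null hearts and 31.6 to 34.0 CPM in the WT hearts, but was not a DEG (log2 fold change 0.19, edgeR adjusted p = 0.373). Nlrc5, the activator specific to class I genes, had 6.27 to 9.16 CPM in the null hearts and 7.05 to 8.99 CPM in the WT hearts.

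Interferon-stimulated genes and class II genes were set beside the class I genes. None of 21 interferon-stimulated genes was a DEG by edgeR's quasi-likelihood test, 3 had an unadjusted p under 0.05, and 18 of the 21 had lower values in the null hearts (median log2 fold change -0.13). The first 2 of these counts are near the shares over all genes (1.14%, and 1625 of 14796). Their summed CPM ran from 244 to 263 in the null hearts and from 269.6 to 304 in the WT hearts, and the groups overlapped once the most variable gene, Rsad2, was left out (219 to 243 and 235 to 262 CPM). Of the 9 class II genes tested, H2-Ea-ps was the 1 DEG, and 7 had lower values in the null hearts (median -0.59). By the same test 6 of the 9, with H2-Ea-ps, had an unadjusted p under 0.05, a larger share than over all genes. H2-Eb1 and H2-DMb1 were lower in every null heart than in any WT heart (log2 fold change -0.87 and -1.01, edgeR adjusted p = 0.104 and 0.116). H2-Aa, a class II chain, had 31.5, 38.6, 29.0 and 44.8 CPM in the null hearts and 66.6, 45.6, 82.2 and 42.2 CPM in the WT hearts, highest in hearts 5 and 7 as H2-K1 was (edgeR adjusted p = 0.202). The 12 macrophage markers all had lower values in the null hearts. None was a DEG, and 6 had an unadjusted p under 0.05 by edgeR's quasi-likelihood test. They summed to between 327 and 420.3 CPM in the null hearts and between 388 and 567 CPM in the WT hearts, with overlap. Endothelial, dendritic cell, T cell and natural killer cell, and B cell markers overlapped between the groups as well. In bulk heart samples, fewer cells of a type and less RNA per cell cannot be told apart, and the part of macrophages in the class I levels was not tested.

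**Figure D5:**
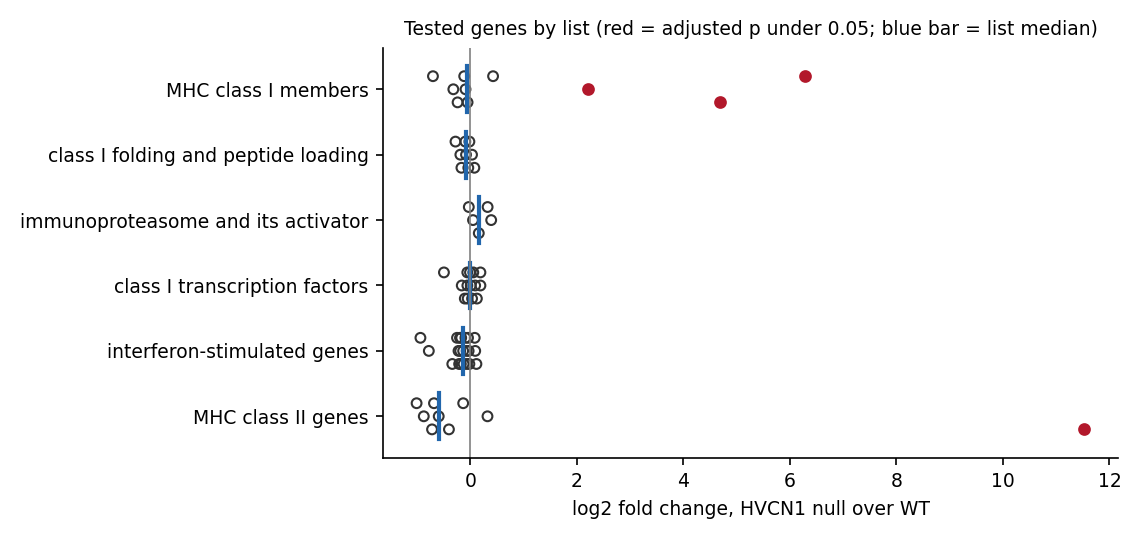
Log2 fold changes (HVCN1 null over WT) of the tested genes of 6 lists, red where the edgeR adjusted p was under 0.05, with a blue bar at the median of each list. Red points are 3 class I genes and 1 class II gene, H2-Ea-ps.

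The genes most like H2-K1 and H2-D1 from heart to heart are given as a description. Likeness was measured by Pearson's r of log2 CPM after group means were subtracted, over 8 hearts that share their library depth with every gene. B2m was 4th among 14795 genes in likeness to H2-D1 (r = 0.98), after Kmt5c, Isyna1 and Dap (each r = 0.99) and before Renbp (r = 0.97), and it was 444th in likeness to H2-K1 (r = 0.77). Whether such values differ between H2-K1 and H2-D1 was not tested. The 5 genes most like H2-K1 were Gm26615, Nfkbid, Slc1a7, Rfc5 and Chad, with r from 0.97 to 0.99. The class II invariant chain Cd74 was 11th in likeness to H2-K1 (r = 0.95) and 446th in likeness to H2-D1 (r = 0.80). H2-K1 and H2-D1 had r = 0.81 with each other. Among the other members, H2-Q6 was most like H2-K1 (r = 0.85) and H2-Q4 most like H2-D1 (r = 0.90), while H2-Q7 had r = 0.69 with H2-K1 and 0.25 with H2-D1. Cd74, like H2-K1, was highest in WT hearts 5 and 7, which had 186 and 220.5 CPM of it.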

How the data were processed

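Poly-A RNA of 4 HVCN1 null and 4 WT hearts was sequenced (1 library per heart, 2 × 50 bases). The authors deposited raw, unscaled counts for each gene, made with STAR and featureCounts (mm10, GRCm38, per the submitters' processing notes), whose versions, strand setting and handling of reads fitting several genes are not given in the sources used here. Total counts per heart set the precision of low genes. Of 39056 identifiers, 38872 matched GENCODE M21. With edgeR 4.0.16 (R 4.3.3), counts were scaled by TMM, filtered with filterByExpr (14796 genes) and compared by the quasi-likelihood test with Benjamini-Hochberg adjustment (DEG at adjusted p under 0.05). Log2 CPM used a prior count of 2. Ratios of summed counts have exact 95% binomial intervals.

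The members and lists were chosen with earlier results of these data known. Named were all 10 members, DEGs of the related lists (else the 2 of highest mean CPM), region DEGs, marker lists without overlap, and the 5 genes most like H2-K1 and H2-D1. Tap1, Nlrc5, Nfyc, H2-Aa, Cd74, H2-T3, H2-Bl, Rsad2, the overlapped genes and other values of marker lists were added after their values were seen. The same holds for H2-Eb1, H2-DMb1, H2-M2, H2-M5 and 2410137M14Rik. Class I genes were found with BLAST+ 2.17.0 as proteins of at least 50% identity to H2-K1 over 200 residues (32 genes with the named ones), and, added later, at least 80% nucleotide identity over 200 bases (39 genes). Windows, pairwise alignments and motifs were computed with Biopython 1.88, pandas 2.3.3 and Python 3.11.15, and plots with matplotlib 3.10.9. Alternatives were RLE or no scaling, no filter, CPM above 1 in 4 hearts, edgeR's likelihood ratio and exact tests, DESeq2 1.42.0, limma 3.58.1 voom and each heart left out. Fits using the atrial markers were chosen after seeing the data. The fits were tested on simulated data.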

Additional observations from a re-analysis of the deposited data

Results flagged for a closer look

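Among groups of 4 hearts, 1 heart lay far from the other 3 for 2 class I genes outside the listed 10. Gm11127 had 6.42 CPM in null heart 3, where the other null hearts had 2.35 to 2.55 CPM. Gm10499 had 12.96 CPM in null heart 3, where the others had 4.07 to 5.03 CPM. Such gaps were looked for in 38 groups, and chance gives about 1.9 in as many. Without null heart 3, both genes were still DEGs, and none of the 10 listed genes had such a gap.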

How the results depend on the processing

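The 3 class I DEGs were 2 or 3 with each heart left out, 2 with library sizes not scaled or with voom, 4 by edgeR's exact and likelihood ratio tests and by DESeq2 (with H2-Q7), and 1 (H2-Q1) in the hearts of high and 1 in the hearts of low atrial markers, fits of 2 against 2 hearts. In the hearts with low atrial markers, log2 fold changes turned to 0.15 for the sum of the 10 genes, 0.16 for the sum of the family, 0.10 for H2-K1, 0.094 for H2-D1, 0.11 for H2-Q6, 0.021 for H2-T22 and 0.052 for H2-T23, and none was called. With hearts left out, the sum of the 10 genes ran from -0.16 to -0.0041, that of the family from -0.13 to 0.023 (above 0 without WT heart 5, at 0.013, and without WT heart 7), and H2-T23 from -0.11 to 0.017. The share on Q genes differed by 2.19 to 3.41 points with hearts left out and by 2.32 points as a share of the family. Region DEGs were 20 by edgeR's exact and 20 by its likelihood ratio test, 21 by DESeq2, 7 to 13 with hearts left out, 2 in the hearts of high and 5 in those of low atrial markers. Over all genes, 169 DEGs became 367, 376 and 466 by the exact test, likelihood ratio test and DESeq2, 71 to 152 with hearts left out, and 24 and 71 in the hearts of high and low atrial markers. The median share of windows found in other genes was 23.6% at 50 bases and 5.96% at 100 bases. The cause of these changes was not tested. No paired analysis was possible because null hearts are numbered 1 to 4 and WT hearts 5 to 8.

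At this depth 3 counts are about 0.1 CPM, so levels near or under this rest on a few counts or none. In the WT hearts this holds for H2-Q1, H2-Q2, Gm11127, Gm7030 and Gm8909, whose levels there are poorly measured. Reads were assigned on the reference alleles, and H2 haplotype, genotype and any effect of alleles on alignment cannot be told apart here.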
